A study of Arabidopsis thaliana with 7 samples.

Results

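The large single-copy region of the Arabidopsis thaliana chloroplast genome was examined for peaks of cyclobutane pyrimidine dimers, the lesions that UV light forms between neighbouring pyrimidines. A peak was counted here when it lay on the chloroplast sequence and ended at or before position 84300 of TAIR10. This gave 388 of the 2936 peaks in 6 libraries, or 13.2%. The UV group held 117, 31, 42 and 130 of them in replicates 1 to 4, and the no UV group held 18 and 50 in replicates 1 and 2. The rule used position alone, and its end fell in a long stretch without peaks. The last peak inside it ended between 84016 and 84223 in each library, and the next chloroplast peak began between 110795 and 127560.

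The UV group was made of 4 libraries from wild-type Col-0 plants treated with UV-C at 3000 J per square metre, and the no UV group of 2 libraries from Col-0 plants. The treatment label of those 2 reads no UV, although the protocol text of every sample names the UV-C dose. All plants were 3 weeks old, the tissue was labelled seedlings, and the light cycle was 16 h light and 8 h dark. DNA from each was immunoprecipitated with an antibody against the dimers, and the authors called peaks for each library against pooled input, per the file names. The labels number the libraries without saying whether they came from separate plants, so a p-value here reflects only how far these libraries scatter, and that scatter may be technical. Read depth is unknown, and its part in the length of a list was not tested. Gene positions came from a later release of the annotation (TAIR10.1), and every gene assignment below rests on the untested assumption that the chloroplast sequence has the same coordinates in both.

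The chloroplast genome is a small circular DNA held in many copies per leaf cell, with a large and a small single-copy region set apart by inverted repeats. Its large single-copy region carries most of the genes for photosystems I and II, the cytochrome b6f complex and the ATP synthase, together with a bacterial-type RNA polymerase, ribosomal proteins and tRNAs. Plastid DNA is packed into protein-rich nucleoids without nucleosomes, and in plants dimers are removed mainly by photolyases driven by light.

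Peaks of the large single-copy region took a larger share of the list in every UV library than in either no UV library. The share was 20.8% in UV replicate 1 (exact 95% binomial interval 17.5 to 24.4%), 13.6% in UV replicate 2 (9.43 to 18.7%), 9.35% in UV replicate 3 (6.82 to 12.4%) and 19.2% in UV replicate 4 (16.3 to 22.4%). It was 4.16% in no UV replicate 1 (2.48 to 6.49%) and 8.52% in no UV replicate 2 (6.39 to 11.1%). The groups did not overlap, but the intervals of UV replicate 3 and no UV replicate 2 did. Means were 15.7% ± 5.26 with UV and 6.34% ± 3.08 without (SD, n = 4 and 2, exact permutation p = 0.133, two-sided). The smallest p that 4 libraries against 2 can give is 0.0667.

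The separation by share was lost under filters on list length, on the median score and on width. It was kept above a score percentile of 90, as described below. With every list kept to its 228 highest-scoring peaks, the number in the shortest list, the region held 39.0%, 13.6%, 11.0% and 36.0% of UV replicates 1 to 4, and 4.82% and 17.1% of no UV replicates 1 and 2. No UV replicate 2 then lay above UV replicates 2 and 3. The cut fell among tied scores, which began at rank 143 in no UV replicate 2 and at rank 73 in no UV replicate 1. These shares, and that order, thus depend on how tied peaks were ordered. When only peaks scoring above their list's median were kept, UV replicate 2, at 12.4%, lay below no UV replicates 1 and 2, at 13.9% and 16.9%. Because of ties this filter kept unlike parts of the lists. It kept 50%, 46.1%, 23.8% and 33.4% of UV replicates 1 to 4, and 16.6% and 24.2% of no UV replicates 1 and 2. Among the peaks wider than the narrowest of their list, UV replicates 2 and 3, at 32.8% and 29.3%, lay below no UV replicate 2, at 36.8%.

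UV replicates 1 and 4 stood apart from the other libraries in how much of the region they covered. Peaks covered 47.7% and 42.9% of it in UV replicates 1 and 4, and 7.0% and 10.6% in UV replicates 2 and 3. In the no UV group they covered 3.66% and 11.7%, so UV replicates 2 and 3 both lay between the no UV libraries. The means were 27.1% ± 21.2 with UV and 7.69% ± 5.69 without (SD, n = 4 and 2, exact permutation p = 0.267). The number of peaks averaged 80.0 ± 50.7 with UV and 34.0 ± 22.6 without (SD, n = 4 and 2, exact permutation p = 0.267). Without UV replicates 1 and 4, a choice made after seeing the data, the UV mean exceeded the no UV mean by 2.50 peaks and 1.13 percentage points of covered length.

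**Figure D1:**
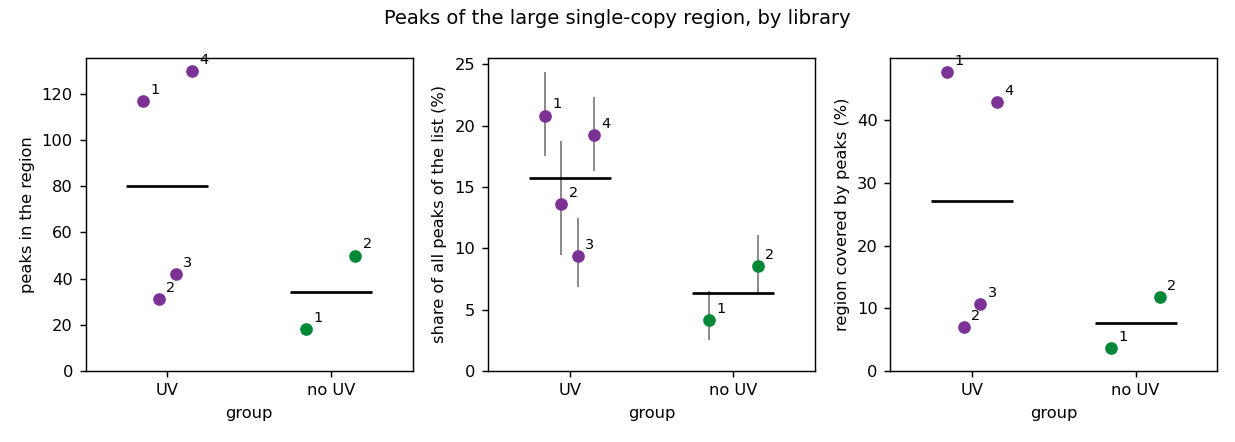
Number of peaks in the large single-copy region (left), their share of all peaks of the list in percent (middle, with exact 95% binomial intervals) and the percent of the region under peaks (right), with 1 point per library, UV left and no UV right, numbered by replicate, and a bar at each group mean. The UV shares, 9.35 to 20.8%, all lie above the no UV shares, 4.16 and 8.52%, while the covered percent of UV replicates 2 and 3 lies between the no UV values.

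Peaks in the region were wide for their lists. The narrowest peak of a list measured between 122 and 147 bp, a width that many of its peaks share. Of the peaks in the region, 86.3%, 64.5%, 57.1% and 87.7% were wider than that in UV replicates 1 to 4, against 77.8% and 86.0% in no UV replicates 1 and 2. On the 5 nuclear chromosomes the same share was 18.3%, 17.5%, 11.6% and 20.1% with UV, against 10.6% and 12.1% without. Within each of the 6 libraries the region was thus 45.5 to 73.9 percentage points above the nuclear peaks, with a mean of 61.5 ± 12.1 (SD, n = 6, exact sign-flip permutation p = 0.03125, the smallest possible). UV and no UV libraries did not separate in the share of wider peaks in the region (exact permutation p = 0.6, n = 4 and 2). The few peaks of the small single-copy region, 1 to 25 per list, were also mostly wider than the narrowest, at 83.3%, 75%, 100% and 80% with UV, against 100% and 68.75% without. The median width in the region was 285, 162, 170.5 and 225 bp in UV replicates 1 to 4, against 149.5 and 188.5 bp in no UV replicates 1 and 2. The widest peak of all, 1356 bp, was in UV replicate 1 at 80703 to 82058, across the ribosomal protein genes rpl14 and rpl16.

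The authors gave each peak a score, and which quantity of the peak caller it holds is not stated, so it was used by rank within its own list, as a percentile with 100 at the top. Peaks of the region averaged a percentile of 69.7, 52.4, 59.3 and 64.4 in UV replicates 1 to 4, against 61.6 and 65.8 in no UV replicates 1 and 2. Nuclear peaks of the same lists averaged 44.8, 50.7, 49.3 and 46.9 with UV, and 50.9 and 47.8 without. The region ranked higher in 6 of 6 libraries, by 13.8 ± 8.06 percentile points (SD, n = 6, exact sign-flip permutation p = 0.03125, the smallest possible). Peaks of the small single-copy region averaged a percentile of 65.3, 57.5, 73.4 and 52.7 with UV, against 93.9 and 69.3 without, which was above the large region in 4 of 6 libraries. The order of the large region and the nuclear peaks turned round when only the peaks wider than the narrowest were kept and ranked among themselves. The region minus the nuclear peaks then averaged -8.79 percentile points (exact sign-flip permutation p = 0.03125, n = 6). With the ranks of the whole lists, the same wide peaks differed by -8.18 ± 8.87 points, and the region was higher in 1 of 6 libraries (SD, n = 6, exact sign-flip permutation p = 0.09375). On the same ranks, peaks of the narrowest width differed by 1.22 ± 14.5 points, with the region higher in 2 of 6 libraries (SD, n = 6, exact sign-flip permutation p = 0.9375).

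The top of each list, above a score percentile of 90, held many of these peaks. They made up 51.8%, 34.8%, 33.3% and 57.4% of it in UV replicates 1 to 4, against 20% and 25.4% in no UV replicates 1 and 2. Each UV library lay above each no UV one (means 44.3% ± 12.1 and 22.7% ± 3.83, SD, n = 4 and 2, exact permutation p = 0.133). Of the peaks of the region themselves, 24.8 to 35.7% stood above that percentile in their UV lists, against 50% and 30% in no UV replicates 1 and 2.

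**Figure D2:**
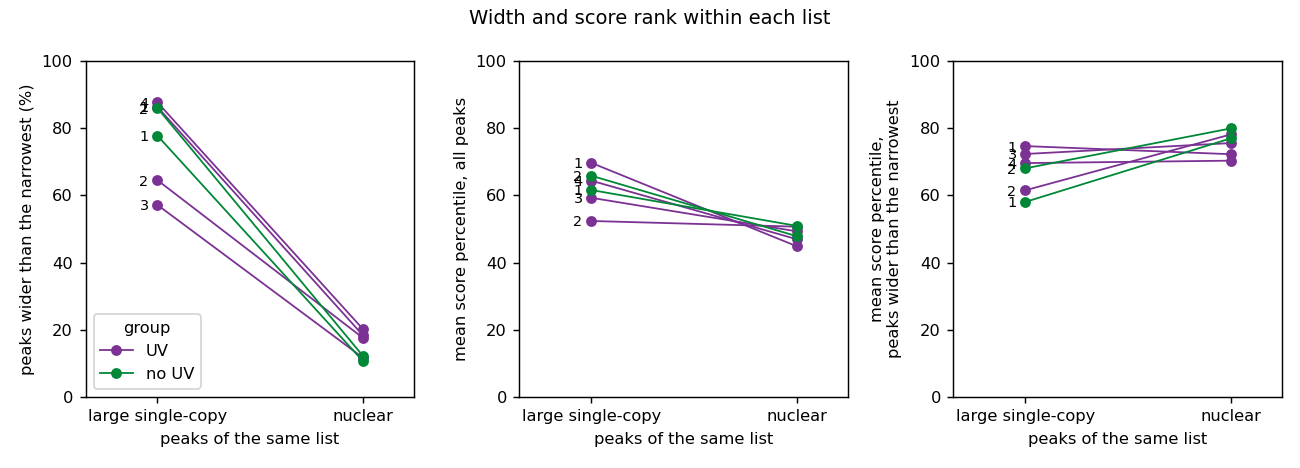
Share of peaks wider than the narrowest of their list in percent (left), mean score percentile of all peaks (middle) and of the peaks wider than the narrowest (right), for the large single-copy region and for the nuclear chromosomes of the same list, with 1 line per library, UV and no UV by colour and the replicate number at the left. In the left panel all 6 libraries lie between 57.1 and 87.7% in the region and between 10.6 and 20.1% on the nuclear chromosomes, and in the right panel the nuclear peaks rank higher in 5 of 6 libraries.

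Peaks were spread along the whole region, with no stretch of 10 kb free of them in any UV library. Of 9 consecutive blocks of 10 kb (the ninth shorter), UV replicate 1 covered between 34.4% and 59.5% and UV replicate 4 between 29.7% and 50.3%. In both, the least covered block was the second, which runs from atpA to rpoC2. UV replicates 2 and 3 covered 4.41 to 13.4% and 6.51 to 15.9% of a block, each with most in the ninth, which ends with rps19. No UV replicate 1 covered none of the sixth block, from ndhC to psaI, which includes atpB, rbcL and accD, and its longest gap between peaks was 18423 bp. The longest gap in no UV replicate 2 was 4600 bp. In 5 blocks UV replicate 2 or 3 lay below the higher no UV library in covered length, as in the first, from trnH to trnR, where no UV replicate 2 covered 17.3% and UV replicates 2 and 3 covered 4.41% and 10.7%.

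Most of the region was covered in some library, and very little of it in many. Peaks of at least 1 UV library lay on 71.6% of its bases, and peaks of at least 1 no UV library on 15.1%. Only 5.87% lay under at least 3 UV libraries and 0.743% under all 4. The no UV libraries shared 213 bases, or 0.253% of the region. Of the 12747 bases under a no UV peak, 77.6% also lay under a UV peak. One stretch of 41 bp was covered in all 6 libraries, at 33818 to 33858 in psbC, which encodes a chlorophyll-binding core antenna protein of photosystem II.

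The peaks on that stretch ranked high in most lists. They ran from 33728 to 34144 in UV replicate 1, 33740 to 33875 in UV replicate 2, 33683 to 34108 in UV replicate 3 and 33670 to 34051 in UV replicate 4. In the no UV group they ran from 33730 to 33858 in replicate 1 and from 33818 to 33939 in replicate 2. Their score percentiles were 91.0, 85.7, 90.1 and 77.0 in UV replicates 1 to 4, against 92.0 and 87.3 in no UV replicates 1 and 2. The groups overlapped in rank, and the lowest value was that of UV replicate 4.

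Merging peaks of all libraries that overlapped by at least 1 bp gave 116 regions in the large single-copy region, and 5 of these had a peak in all 6 libraries, against 0.566% of the 2473 regions of the whole series. Besides the psbD and psbC region at 33670 to 34259, they lay at 37421 to 40872 in psaB and psaA, at 46509 to 48096 over trnL, at 67602 to 70005 from rpl33 to clpP, and at 83777 to 84223 in rpl22 and rps19. These other 4 were chains of peaks in which no base was shared by all libraries. A base was shared by at most 4 libraries in the psaB and trnL regions and by at most 5 in the rest.

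In 4 libraries the highest-scoring peak of the large single-copy region lay at the rps12 end of the stretch from rpl33 to clpP. rps12, for a protein of the small ribosomal subunit, is transcribed in separate pieces joined by trans-splicing, and only its first piece lies here. The peak ran from 69620 to 70005 in UV replicate 2 (percentile 96.7), from 69623 to 69866 in UV replicate 3 (97.7), from 69109 to 69787 in UV replicate 4 (98.9) and from 69646 to 69863 in no UV replicate 2 (99.1). UV replicate 1 had a narrower one there, at 69708 to 69854, with a percentile of 18.95, and no UV replicate 1 had none. The stretch from 69708 to 69787 was thus covered in 5 libraries, with no UV replicate 1 missing. The top peak of UV replicate 1 lay in psaB, at 37421 to 38372 (percentile 97.8), and that of no UV replicate 1 in psbA, at 941 to 1092 (97.8).

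Regions with a peak in at least 2 UV libraries and in no untreated one numbered 40 of 116, or 34.5%, against 2.63% of all regions of the series. Regions with a peak in 1 library only, which cannot meet this rule, were 24.1% of the 116 and 93.5% of all regions. The contrast is thus in part one of how often peaks overlapped between libraries. The 65 regions of the series that met the rule include these 40. Of these 40, 24 had peaks in UV replicates 1 and 4 and nowhere else, the libraries that covered most of the region. The 24 were 20.7% of the 116, against 1.29% of all regions. The count was 15 without UV replicate 1, 21 without UV replicate 4, 67 without no UV replicate 2 and 5 without UV replicates 1 and 4. In at least 3 UV libraries there were 13, or 11.2%, against 0.89% of all regions. No region had a peak in both no UV libraries and in no UV-treated one, against 0.0809% of all regions, and 2 regions, or 1.72%, had a peak in 1 no UV library only, against 35.7% of all regions.

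In 4 of these regions all UV libraries had a peak, against 0.243% of all regions, and in none of the 4 did a base lie under all of them. They lay at 56604 to 57528 before and in accD, at 82236 to 82838 in rpl16 and rps3, at 27635 to 28310 around petN and at 11608 to 12550 in atpF. Their ranks varied between lists. In the accD region the mean percentile was 70.9, 21.7, 88.3 and 82.6 in UV replicates 1 to 4, and in the atpF region it was 71.6, 36.6, 5.01 and 22.7. UV replicate 2 ranked lowest in the accD region and UV replicate 3 in the atpF region. A further 9 were found in 3 UV libraries, and are given by mean rank. The psbC one spanned 34366 to 35231 (percentiles of 95.8, 87.6 and 86.8 in UV replicates 1, 3 and 4) and the rpoC2 one 18668 to 19167. After these came trnK and the matK gene within it, over 2311 to 2762, then cemA, over 61291 to 61635. The spacer between trnT and psbD had one over 32020 to 32575, petD one over 76533 to 76880 and rpoB one over 23724 to 24887. At the border of atpA and atpF one spanned 11336 to 11579. The lowest, in clpP, for the proteolytic subunit of a plastid protease, spanned 70272 to 70476, with a mean percentile of 35.1.

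Bases under all 4 UV libraries and under neither untreated one came to 366 bp in 4 stretches, none of them in the accD, rpl16, petN or atpF regions. The longest was 186 bp in ycf3, at 43655 to 43840, and ycf3 encodes an assembly factor of photosystem I. The others were 90 bp in psaB (37810 to 37899), 63 bp in ndhK (49577 to 49639) and 27 bp between trnL and trnF (47772 to 47798). All 4 stretches lay in merged regions that also held a no UV peak, so none of these regions was free of peaks without UV. Near the ycf3 stretch no UV replicate 2 had a peak at 43897 to 44037. Near the ndhK stretch no UV replicate 1 had one at 49392 to 49535, and near the trnL to trnF stretch one at 47519 to 47725. The ycf3 peaks had percentiles of 18.4, 91.2, 89.0 and 84.4 in UV replicates 1 to 4.

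Gene by gene, coverage was read as the percent of a gene's length under peaks. Gene length was not allowed for, and 1 peak can fill a gene shorter than itself, the narrowest peaks being 122 to 147 bp. High values in small genes, most tRNA genes among them, are therefore not comparable with those in long genes. Of the 83 genes listed in the region, peaks touched 65, 25, 28 and 65 in UV replicates 1 to 4, against 16 and 36 in no UV replicates 1 and 2. In 68 of the 83 genes the UV mean was above the no UV mean, and the median over the genes was 26.9% for the UV mean and 0% for the no UV mean. These UV means join UV replicates 1 and 4, which touched most genes, with UV replicates 2 and 3, which touched fewer than no UV replicate 2. The count of 68 is not set against all genes here, so it does not mark this region off from others. In 6 genes, or 7.23%, each UV library exceeded each untreated one, against 0.021% of all 38028 genes of the nuclear and chloroplast chromosomes. Among genes touched in any library it was 8% of the 75 in the region, against 0.467% of all 1712. The 6 were themselves part of the 8 genes that met this rule among all genes. Of the 15 arrangements of 4 and 2 libraries, 1 gives this order, a share of 0.0667, so no such gene can pass a test adjusted over all genes. Another 6 genes were touched in all 6 libraries, namely atpA, rpoC1, psbD, psbC, psaB and rps19. They were 7.23% of the region's genes and 8% of its touched ones, against 0.0263% of all genes and 0.584% of all touched ones.

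**Figure D3:**
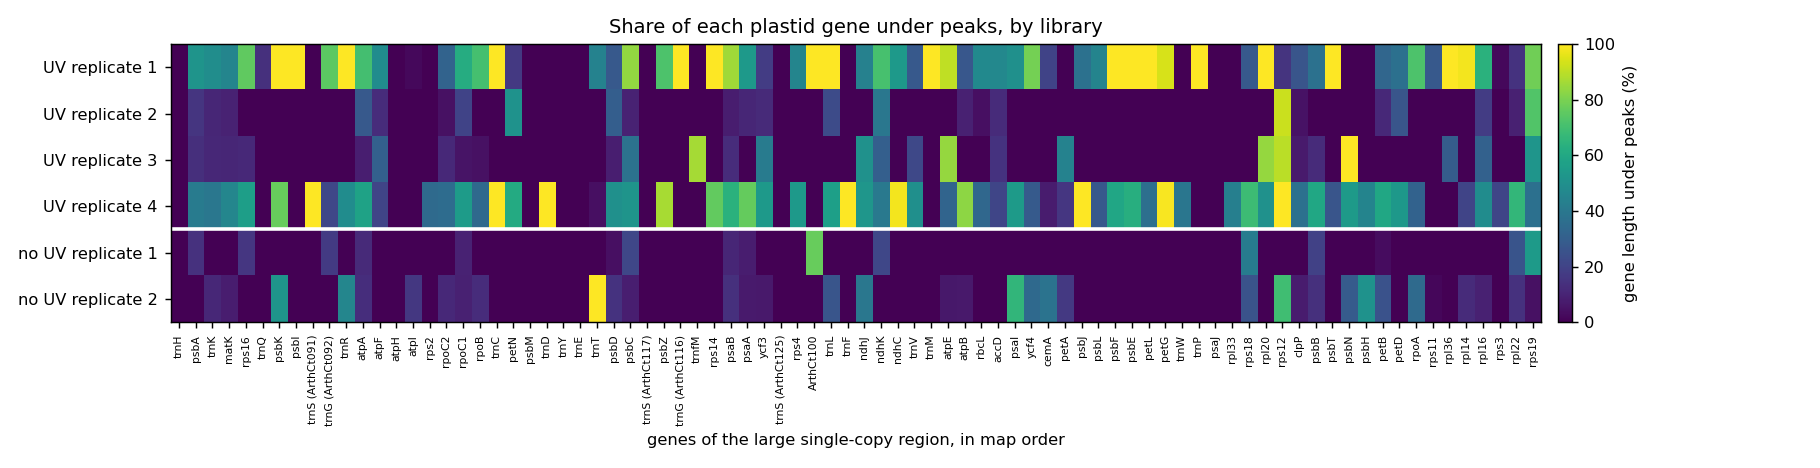
Percent of the length of each gene under peaks (colour scale 0 to 100), with 82 of the 83 genes of the large single-copy region in map order along the x axis and 1 row per library, the 4 UV libraries above the white line and the 2 no UV libraries below it. Of all 83 genes, UV replicates 1 and 4 touch 65 each, UV replicates 2 and 3 touch 25 and 28, and the no UV libraries touch 16 and 36.

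Photosystem genes were touched in every library, and the highest mean coverage with UV was that of psbC and, after it, the small gene psbK. psbC was covered to 83.9%, 9.56%, 37.6% and 51.7% in UV replicates 1 to 4, against 21.1% and 8.58% in no UV replicates 1 and 2. UV replicate 2 lay between the no UV libraries, so the groups overlapped. psaB, for a reaction centre protein of photosystem I, had 85.8%, 8.03%, 12.8% and 63.9% with UV, and 10.7% and 13.7% without. psbA, for the photosystem II protein turned over fastest in the light, had 51.8%, 15.3%, 13.7% and 41.4% with UV, and 14.3% and 0% without. UV replicate 3 thus lay below no UV replicate 1 there. psbK, for a small subunit of photosystem II, had 100%, 0%, 0% and 76.9% with UV, and 0% and 51.6% without. Of the 19 photosystem genes, 6 small ones (psbZ, psbJ, psbL, psbF, psbE and psbT) were touched in UV replicates 1 and 4 and in no other library. They were the genes of the class, 31.6% of it, touched in at least 2 UV libraries and in no untreated one. The same looser rule took in 26.5% of the region's genes and 0.121% of all genes. psaJ and psbM, for small subunits of photosystems I and II, were touched in no library.

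The cytochrome b6f complex, which passes electrons between the photosystems, has 6 genes here. Peaks touched 5, 3, 1 and 6 of them in UV replicates 1 to 4, against 1 and 2 in no UV replicates 1 and 2. UV replicate 3 thus touched no more of them than either no UV library. Of the 6, petN, petL, petG and petD were touched in at least 2 UV libraries and in no untreated one. In the whole region 22 genes met that rule, 26.5%, against 0.121% of all genes. Among genes touched in any library it was 29.3% in the region, against 2.69% of all. petG, for a small subunit, was covered to 93.9% and 99.1% in UV replicates 1 and 4 and not at all in the other 4 libraries. petL, another small subunit, had 100% and 36.5% in the same UV replicates and 0% elsewhere. petD, for the subunit that binds plastoquinone together with cytochrome b6, had 36.8%, 26.2%, 0% and 53.3% with UV and 0% in both no UV libraries. petA, for cytochrome f, was the least covered, with 0%, 0%, 44.2% and 15.8% with UV, and 0% and 16.7% without.

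ATP synthase genes, which lie in separate groups from atpA to atpI and at atpE and atpB, ranged from untouched to largely covered. atpF, for a stalk subunit, had 48.7%, 12.6%, 30.5% and 20.6% in UV replicates 1 to 4 and 0% in both no UV libraries, so the groups did not overlap. atpA, for the alpha subunit of the catalytic head, had 70.0%, 28.0%, 8.27% and 57.5% with UV, and 11.7% and 13.3% without, with UV replicate 3 the lowest of all. atpE, for the epsilon subunit, had 90.5%, 0%, 84.2% and 32.3% with UV, and 0% and 6.27% without. atpH, for the membrane ring subunit, was touched in no library, although it lies beside atpF. It fell in a stretch of 801 bp free of peaks, and a further stretch of 1266 bp over parts of atpI and rps2 was the longest in the region without a peak in any library.

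The genes of the plastid-encoded RNA polymerase lie in the long stretch from rpoB to rpoC2, apart from rpoA. rpoC1 was covered to 61.8%, 20.1%, 5.12% and 54.8% in UV replicates 1 to 4, against 9.74% and 9.14% in the no UV libraries, with UV replicate 3 below both. rpoB, for the beta subunit, had 70.4%, 0%, 4.50% and 34.1% with UV, and 0% and 12.7% without. rpoC2 had 31.9%, 4.50%, 11.6% and 35.3% with UV, and 0% and 11.5% without. All 4 polymerase genes were touched in no UV replicate 2, so none met the rule of UV libraries alone.

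Among the 16 ribosomal protein genes, the highest mean coverage with UV was that of rps12, of which only the first piece lies here. It was 14.9%, 92.1%, 89.5% and 100% in UV replicates 1 to 4, against 0% and 69.3% in the no UV ones. rps19 followed with 78.5%, 72.8%, 52.0% and 36.9% with UV, and 54.5% and 4.30% without. In both genes a no UV library reached into the UV range. rpl16, for a protein of the large subunit, had 63.9%, 17.6%, 30.9% and 48.6% with UV, and 0% and 9.02% without, and its groups did not overlap. rpl20 had 100%, 0%, 84.2% and 50.6% with UV and 0% in both no UV libraries. rps3 was the least covered, with 1.98%, 0%, 0% and 20.9% with UV and 0% without. Of these genes, 6 met the rule of at least 2 UV libraries and no untreated one, rpl20 and rps3 among them.

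The 3 genes of the NADH dehydrogenase-like complex in this region, which serves cyclic electron flow, lie side by side. ndhK was covered to 70.8%, 39.7%, 30.2% and 40.3% in UV replicates 1 to 4, against 21.2% and 0% in the no UV ones, so every UV library was above both. ndhC had 53.7%, 0%, 0% and 98.3% with UV and 0% without. ndhJ had 44.0%, 0%, 50.5% and 52.6% with UV, and 0% and 39.8% without.

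Of 22 tRNA genes, 5 were touched in no library, trnH, trnY, trnE and 2 of the genes named trnS (ArthCt117 and ArthCt125). In the whole region 8 of the 83 genes were untouched, or 9.64%, against 95.5% of all genes. trnC was covered whole in UV replicates 1 and 4 and not in the other libraries. trnL had 100%, 22.8%, 0% and 56.6% with UV, and 0% and 26.5% without. In UV replicates 1 and 4, 7 and 4 tRNA genes were covered whole, against 1 in no UV replicate 2.

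Of the 7 remaining genes, matK, ycf3 and accD had every UV library above both no UV ones. ycf3 was covered to 17.8%, 11.9%, 41.8% and 54.2% in UV replicates 1 to 4, against 0% and 7.02% in the no UV ones. matK, for a splicing factor of group II introns that lies inside the trnK gene, had 45.5%, 9.44%, 10.9% and 45.7% with UV, and 0% and 8.12% without. UV replicate 2 was thus close to no UV replicate 2. accD, which encodes part of the acetyl-CoA carboxylase of fatty acid synthesis, had 46.5%, 12.2%, 14.5% and 20.7% with UV and 0% in both no UV libraries. rbcL, for the large subunit of Rubisco, had 47.4%, 4.17%, 0% and 33.5% with UV and 0% without. cemA, for a protein of the chloroplast envelope, went the other way in its means, with 20.3%, 0%, 0% and 7.54% with UV, and 0% and 38.0% without.

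No class of genes took a share of the covered bases that differed from its length by the adjusted test. That test could hardly pass a class, so the outcome does not show that shares follow length. The smallest sign-flip p from 6 libraries is 0.03125, and 1 class alone at it is adjusted to 0.281 over 9 classes. Each base of the region was given to the shortest gene over it or to spacer, and the share of a library's covered bases in each of 9 classes was set against the share of the region in that class, so that the amount covered cancels. NDH genes held 2.20%, 4.56%, 4.98% and 2.43% of the covered bases in UV replicates 1 to 4, against 4.66% and 1.92% in the no UV ones, against 1.8% of the region. They were above their length in 6 of 6 libraries, by 1.66 ± 1.41 percentage points (SD, n = 6, exact sign-flip permutation p = 0.03125, adjusted p = 0.281 over the 9 classes by Benjamini-Hochberg). Photosystem genes held 16.7%, 17.0%, 14.7% and 18.4% with UV, and 37.7% and 13.0% without, against 13.5% of the region, and were above it in 5 of 6 libraries (exact sign-flip permutation p = 0.0625, adjusted p = 0.281).

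Spacers held 32.1%, 17.4%, 25.6% and 31.0% of the covered bases in UV replicates 1 to 4, against 16.3% and 42.8% in the no UV ones, against 33.9% of the region. They were below their length in 5 of 6 libraries (exact sign-flip permutation p = 0.1875, adjusted p = 0.492). The no UV libraries lay at both ends of the range for spacers, and likewise for photosystem and ribosomal protein genes. The other 6 classes had adjusted p-values from 0.492 to 0.875.

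No class passed the adjusted test of UV against no UV, and none could, the smallest exact permutation p being 0.0667 before adjustment. ATP synthase genes held 6.13%, 12.3%, 9.48% and 6.92% with UV, and 5.79% and 4.52% without, each UV library being above both (exact permutation p = 0.133, adjusted p = 0.6 over 9 classes, n = 4 and 2). The 7 remaining genes held 11.5% ± 2.89 with UV and 4.37% ± 6.18 without (SD, n = 4 and 2, exact permutation p = 0.133, adjusted p = 0.6). UV replicate 1, at 8.73%, was there below no UV replicate 2, at 8.74%. The adjusted p-value of the other 7 classes was 0.933 in each.

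**Figure D4:**
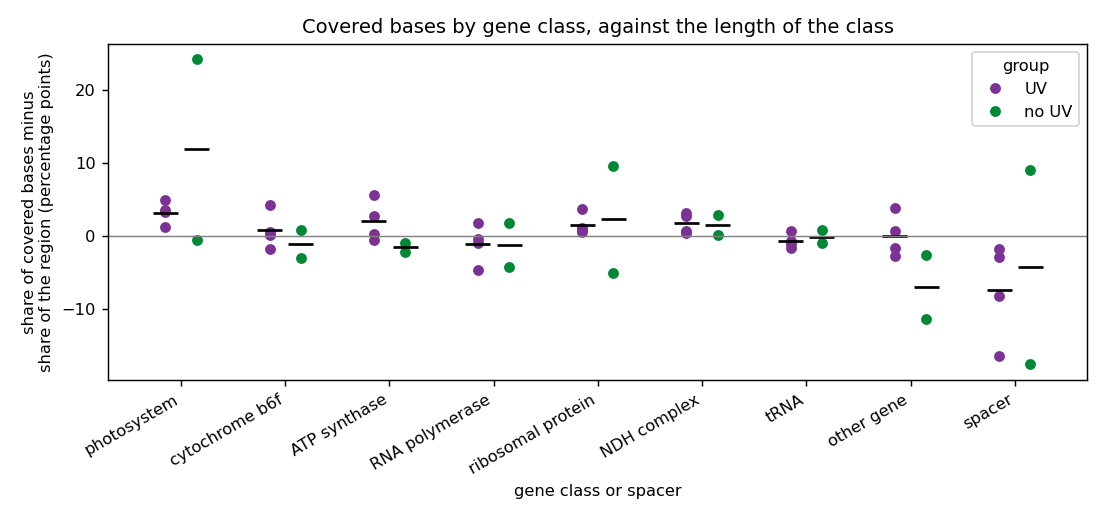
Share of the covered bases of the large single-copy region that lay in each gene class or in spacers, minus the share of the region in that class, in percentage points, with 1 point per library, UV left and no UV right in each class, a bar at each group mean and a line at 0. NDH genes lie above 0 in all 6 libraries, spacers lie below it in 5, and the no UV points are far apart for photosystem genes, ribosomal protein genes and spacers.

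Most peaks of the smaller sets overlapped a peak of the larger ones by at least 1 bp. Of the peaks of UV replicate 2, 27 of 31 overlapped a peak of UV replicate 1 and 24 of 31 one of UV replicate 4. In UV replicate 3 it was 35 and 29 of 42. The no UV sets did likewise, with 16 and 14 of 18 peaks in replicate 1 and 36 and 39 of 50 in replicate 2. UV replicates 1 and 4 overlapped each other in 95 of 117 and 104 of 130 peaks. In bases, UV replicate 1 lay over 58.3% of UV replicate 2 and 61.8% of UV replicate 3, and over 52.1% and 52.9% of no UV replicates 1 and 2, while it covered 47.7% of the region. UV replicate 4 lay over 59% and 46.0% of the bases of UV replicates 2 and 3, and over 53.4% and 44.7% of those of no UV replicates 1 and 2, while it covered 42.9%. The no UV libraries overlapped each other in 3 of 18 and 3 of 50 peaks.

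The small single-copy region, which holds most of the other ndh genes, was set beside it over the stretch that peaks of any library span in each. The large region was covered to 47.8%, 7.02%, 10.7% and 43.0% in UV replicates 1 to 4, against 3.67% and 11.7% in the no UV ones. The small region was covered to 36.0%, 7.80%, 6.54% and 36.1% with UV, and to 0.873% and 15.5% without. The difference was 3.52 ± 5.52 percentage points, with the large region higher in 4 of 6 libraries (SD, n = 6, exact sign-flip permutation p = 0.219). It was 1.86 without UV replicate 1 and 0.603 without UV replicates 1 and 4. UV replicates 1 and 4 thus stood apart from the other libraries in both single-copy regions.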

How the data were processed

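Peak lists of 6 anti-dimer libraries, 4 UV and 2 no UV, were analysed. The input library has no peak list here and entered no comparison. Per the submitters' processing notes, CASAVA 1.8.2, Bowtie and MACS2 were used on TAIR10. Per the file names, the authors called each list against pooled input. The threshold is not given in the sources used here. The score of a peak is the authors' deposited value, used only by rank (mid-rank for ties) or to filter within a list. Starts and ends are as deposited, counted from 1.

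Members, gene lists and tests were chosen with earlier results of these data known. Genes came from a RefSeq table of TAIR10.1, taken to match TAIR10 on the chloroplast, which was not tested. Named were the regions and top peaks described, in each class the 2 genes of highest mean UV coverage and the lowest, and every untouched gene. The other genes named, and the clpP region, were chosen after their values were seen. Each base went to the shortest gene over it, otherwise to spacer. Group means were compared by exact permutation over the 15 arrangements, and values within libraries by exact sign flips over 6. Intervals are exact binomial (Clopper-Pearson, 95%) and cover counting error only. Python 3.11.15, numpy 2.4.6, pandas 2.3.3, scipy 1.17.1 and matplotlib 3.10.9 were used. Merging, coverage and exact tests were tested on simulated data. Sequence, dipyrimidine content, strand and exons were not analysed here. Alternatives were leaving out libraries, filters on score, list length and width, peaks by midpoint, and a stricter overlap. The values of 1 gene are not reported here.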

Additional observations from a re-analysis of the deposited data

Results flagged for a closer look

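Of 18 measures screened in the 4 UV libraries, 1 had a library far from the other 3. Ribosomal protein genes held 12.9% of the covered bases of the large single-copy region in UV replicate 3, against 9.88 to 10.4% in the other UV libraries. Chance gives such a gap in about 1 of 20 groups.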

How the results depend on the processing

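With 4 and 2 libraries no difference between UV and no UV could pass an exact test, and precision is limited by the number of libraries and by unknown read depth. Where a value below changed sign, the cause was not tested. The difference between UV and no UV in mean score percentile was -2.29, and became 2.02 among peaks above the median score (exact permutation p = 0.8), 6.62 among peaks wider than the narrowest (exact permutation p = 0.2) and -5.04 to 0.725 with 1 library left out. The region minus the nuclear peaks in percentile became -8.79 among the wider peaks, 11.6 to 16.2 with 1 library left out (exact permutation p = 0.0625 each, the smallest 5 libraries allow), and 10.1 without UV replicates 1 and 4 (exact permutation p = 0.125). The difference in the share of wider peaks became 59.1 to 64.7 with 1 library left out (exact permutation p = 0.0625) and 58.4 without UV replicates 1 and 4 (exact permutation p = 0.125). UV minus no UV in that share was -7.97, but 6.02 when low-scoring peaks were dropped at the median. The 40 regions of UV libraries alone became 13 with at least 3 UV libraries, 15 to 67 with 1 library left out and 5 without UV replicates 1 and 4.

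Class shares against length, none of which passed the adjusted test, changed sign as follows. ATP synthase became -1.08 above the median score and -0.172 to 1.38 with 1 library left out. Cytochrome b6f became -0.0536 above the median score, -0.0152 by midpoints and -0.690 to 0.753 with 1 library left out, and tRNA became 0.316 by midpoints. In UV minus no UV, scores above the median gave ATP synthase -0.569, NDH -1.55, cytochrome b6f -3.52, photosystem 0.126 and ribosomal protein 5.73. Midpoints gave NDH -0.777, RNA polymerase -0.0233 and ribosomal protein 1.46, and lists of equal length gave NDH -0.862. Without UV replicates 1 and 4, RNA polymerase became -1.27 and ribosomal protein 0.0677. With 1 library left out, the ranges were -1.12 to 1.62 for NDH, -2.85 to 3.23 for RNA polymerase, -21.0 to 3.71 for photosystem, -8.03 to 6.56 for ribosomal protein, -16.3 to 10.2 for spacers and -1.42 to 0.360 for tRNA.

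With the replicate number as a replicate block, over the 2 shared numbers, UV exceeded no UV by 40 peaks, 10.9 percentage points of the list and 19.7 of covered length, and the tRNA share became 0.124. The smallest p with 2 pairs is 0.5. Same-numbered libraries deviated from their group means over 83 genes with correlations of 0.134 and -0.0095. The deviations of the 2 no UV libraries are exact opposites, so the other numbers gave -0.134 and 0.0095. Same and other numbers can thus differ only in sign. The labels do not say what a shared number stands for, and 2 pairs do not settle it.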
